A study of Homo sapiens with 12 samples.

Results

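The FASTK family is a small group of nuclear-encoded proteins that act on the RNA of mitochondria. Its 6 members, FASTK, FASTKD1, FASTKD2, FASTKD3, FASTKD5 and TBRG4 (also called FASTKD4), were taken by name from a table of 22379 genes, and all of them were among the 13811 genes that passed the minimum of a mean normalised signal of 10 over the untreated libraries. The family was chosen because FASTKD5 was listed at 0 in both triptolide-treated libraries of the control guide. These zeros are therefore a description and were not tested, and the question was how the other members behaved.

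Mitochondrial DNA is transcribed as long polycistronic RNAs that carry mRNAs, rRNAs and tRNAs together. The RNAs are cut out of these precursors, polyadenylated in most cases, stabilised and translated inside the organelle by proteins that are made from nuclear genes. FASTK family proteins share a carboxyl-terminal RAP domain and bind mitochondrial RNA, where individual members support the processing or stability of particular transcripts or the assembly of mitochondrial ribosomes. The mRNAs measured here are the nuclear transcripts that encode these proteins, so their synthesis depends on RNA polymerase II.

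The cells were U2OS, a human osteosarcoma line, given Cas9 and a guide RNA on 1 plasmid by transient transfection, selected with puromycin and used as pools, not clones. In the control pool the guide had no target (NONT). In NUP93-KO it cut the gene of a nuclear pore protein, and in EXOSC5-KO that of an RNA exosome subunit. Per the methods, selection was shorter for the NUP93 and EXOSC5 pools than for the other guides. Each genotype was left without drug (untreated, recorded as DMSO) or received 1 µM triptolide, an inhibitor of the XPB helicase of TFIIH, for 8 h, with 2 replicates in each of 6 groups and 12 libraries in all. The value of each gene is its estimated read count divided by a size factor from spike-in RNAs added per counted cell, called the normalised signal here.

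Approximate depth was 8570000 to 11950000 reads per library, and 1 read was worth 0.487 to 1.757 units of normalised signal. The summed signal of all genes was 11300000 in untreated NONT replicate 1 and 16400000 in replicate 2, a wider gap than in any other group. NUP93 signal was 1753 and 2489 in untreated NONT and 1395 and 1432 in untreated NUP93-KO. EXOSC5 signal was 299.4 and 481.3 in untreated NONT and 215.9 and 147.7 in untreated EXOSC5-KO. The targeted mRNAs were lower without overlap of the groups, but neither difference passed (limma adjusted p = 0.926 and 0.151), and an edited gene need not lose its mRNA. VIM, COL1A1, SPARC and FN1, mesenchymal and osteoblast markers, were all at 13192 or more without drug, RUNX2 was at 218.1 to 403.5 and COL1A2 only at 10.2 to 42.0. Of the markers of other cells, KRT18 was at 8846 to 13637, EPCAM and CDH1 were at 69.7 or less, PTPRC and PECAM1 at 9.99 or less, and CD3E was listed at 0 throughout.

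The members lie on 4 chromosomes in GRCh38 (GENCODE release 44). FASTK (ENSG00000164896) is at chr7:151076624-151080866 and TBRG4 (ENSG00000136270) at chr7:45100100-45112047, both on the minus strand. FASTKD1 (ENSG00000138399, chr2:169528508-169573875) is on the minus strand and FASTKD2 (ENSG00000118246, chr2:206765357-206796189) on the plus strand. FASTKD3 (ENSG00000124279, chr5:7859159-7869037) and FASTKD5 (ENSG00000215251, chr20:3146519-3159865) are on the minus strand. FASTKD5 has its whole coding sequence in 1 exon, which holds for 5.93% of the tested genes, whereas the other members have 6 to 14 coding exons.

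The sequence before the start is shown for FASTK and FASTKD3, which had the smallest and the largest response to triptolide among the members other than FASTKD5. The stretches come from the RefSeq promoter table (GRCh38.p14, minus strand) and stop before any annotated exon of the gene. The FASTKD3 stretch also stops at the start of the reference transcript of MTRR, a gene transcribed in the opposite direction. Capitals mark the GC box (GGGCGG) and the CCAAT box (CCAAT) on either strand.
FASTK, chr7:151080867-151081059: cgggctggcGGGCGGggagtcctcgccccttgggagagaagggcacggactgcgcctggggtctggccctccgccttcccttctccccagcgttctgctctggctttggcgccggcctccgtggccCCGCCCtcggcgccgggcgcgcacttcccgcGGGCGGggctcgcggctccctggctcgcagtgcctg
FASTKD3, chr5:7869038-7869147: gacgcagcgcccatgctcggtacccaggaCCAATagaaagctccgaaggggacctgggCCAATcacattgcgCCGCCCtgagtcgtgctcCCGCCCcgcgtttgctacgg

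Both stretches held GC boxes, 3 in FASTK and 2 in FASTKD3, and the 2 CCAAT boxes were in FASTKD3. Over the whole 250 bases before the start, FASTK had 4 GC boxes and 1 CCAAT box, FASTKD3 had 2 of each, and FASTKD1, FASTKD2 and TBRG4 had neither. Of 35116 promoters of the same length, 42.6% held a GC box and 32.0% a CCAAT box. The TATA box letters TATAAA, found in 10.7% of promoters, were in none of the 5 members that had an entry. The ETS core CCGGAA, found in 14.5%, occurred 2 times in TBRG4 and 1 time in FASTKD3. FASTKD5 was not among the entries.

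The pentamer ATTTA, the core of AU-rich elements that are known from unstable mRNAs, was searched for on the transcript strand of the 3′ UTR of each reference transcript. FASTK and TBRG4 held 0 copies in 3′ UTRs of 101 and 225 bases. FASTKD5 held 1 in 257 bases, FASTKD3 held 3 in 276, FASTKD1 held 3 in 1317 and FASTKD2 held 12 in 4387. Among 347 tested genes with a 3′ UTR of 225 to 276 bases, 34.6% held at least 1 copy and 3.46% at least 3. One site each of FASTKD3 and FASTKD5, the members with the deepest losses, is shown with ATTTA in capitals (GRCh38, minus strand).
FASTKD3, chr5:7859266-7859294: tactatgtatacATTTAttgtggtaaaat
FASTKD5, chr20:3146754-3146775: agggcATTTAggggcatttcta

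FASTKD2, with the most copies in the longest 3′ UTR, lost less than FASTKD1 and FASTKD3. FASTK and TBRG4, with 0 copies, lost the least. The Pumilio-type letters TGTANATA were in the 3′ UTR of 0 of 6 members and in 30.5% of tested genes. GC content of the transcript was 63.15% in FASTK and 58.98% in TBRG4, 45.25% in FASTKD5 and 38.6% to 40.51% in the others, with a median of 48.1% over tested genes. With 6 genes, these features are descriptions and no relation to the response was tested.

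Before drug, the family was dominated by TBRG4, which stabilises a subset of mitochondrial mRNAs. Levels between genes are compared as normalised signal per kb of the reference transcript. TBRG4 was at 641.3 to 947.9 per kb over the 6 untreated libraries (median 820.6) and took 54.8% to 60.1% of the family's summed signal per kb. FASTKD5, needed to process precursors that are not punctuated by tRNAs, came next at 177.8 to 256.6 (median 199.4). FASTKD2, a factor for mitochondrial ribosome assembly, followed at 125.0 to 196.5 and FASTK, which has a mitochondrial form that supports ND6 mRNA, at 95.9 to 150.6. FASTKD1 was at 67.1 to 116.3 and FASTKD3, which also acts on mitochondrial mRNAs, was lowest at 48.4 to 68.5. Only TBRG4 stood clear of its neighbour over all untreated libraries, and the ranges of the other neighbours overlapped. Within libraries the order was the same in 6 of 6 except that FASTK exceeded FASTKD2 in 1 untreated library. The order depends on the division by transcript length. In undivided signal FASTKD2, at 838.8 to 1319, was above FASTKD5, at 505.2 to 729.1.

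Without drug, no member passed the test between a knockout and NONT. Of the 6 members, 0 differed between untreated NUP93-KO and NONT (0.0217% of all tested genes did), with log2 fold changes of −0.24 for FASTKD2 to 0.18 for FASTKD1 and 0 at an unadjusted p under 0.05. In untreated EXOSC5-KO, 0 of 6 differed from NONT (0.521% of all tested genes), with log2 fold changes of −0.23 for FASTK to 0.39 for FASTKD3 and again 0 at an unadjusted p under 0.05. The lowest limma adjusted p was 1.0 in the former comparison and 0.979 in the latter. FASTKD3, for example, measured 117.6 and 135.0 in the NONT libraries and 120.9 and 135.1 in those of NUP93-KO. Its 166.6 and 163.9 in EXOSC5-KO lay above the other 4 libraries by less than the test could call. The SE of these fold changes was 0.20 to 0.93, and with 2 replicates even changes of several SE could be missed. EXOSC5 itself, at −1.08 ± 0.29 in untreated EXOSC5-KO, did not pass.

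The members differed widely in how much mRNA was left after triptolide. FASTK kept 51.0%, 65.9% and 84.1% of its untreated mean in NONT, NUP93-KO and EXOSC5-KO, whereas FASTKD3 kept 7.77% or less in each genotype. All 5 members tested in NONT fell (90.0% of all tested genes did). In NUP93-KO 5 of 6 fell (55.1% of all genes). In EXOSC5-KO 5 of 6 fell (64.3%), and FASTK was the exception in both. Since most genes fell, the counts say little about the members, and the sizes carry the contrast between them. The spike-in scale sets this background: with median-of-ratios scaling 4213 genes were lower and 3703 higher in NONT, against 12427 and 7. The log2 fold change of the median gene was −1.62, −0.92 and −1.08 for NONT, NUP93-KO and EXOSC5-KO, respectively. Among the 5 members other than FASTKD5 the median was −2.69, −1.72 and −1.99. With FASTKD5 included it was −2.32 and −2.18 in the knockouts. In bulk RNA, fewer cells with the transcript and less of it per cell cannot be told apart.

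**Figure D1:**
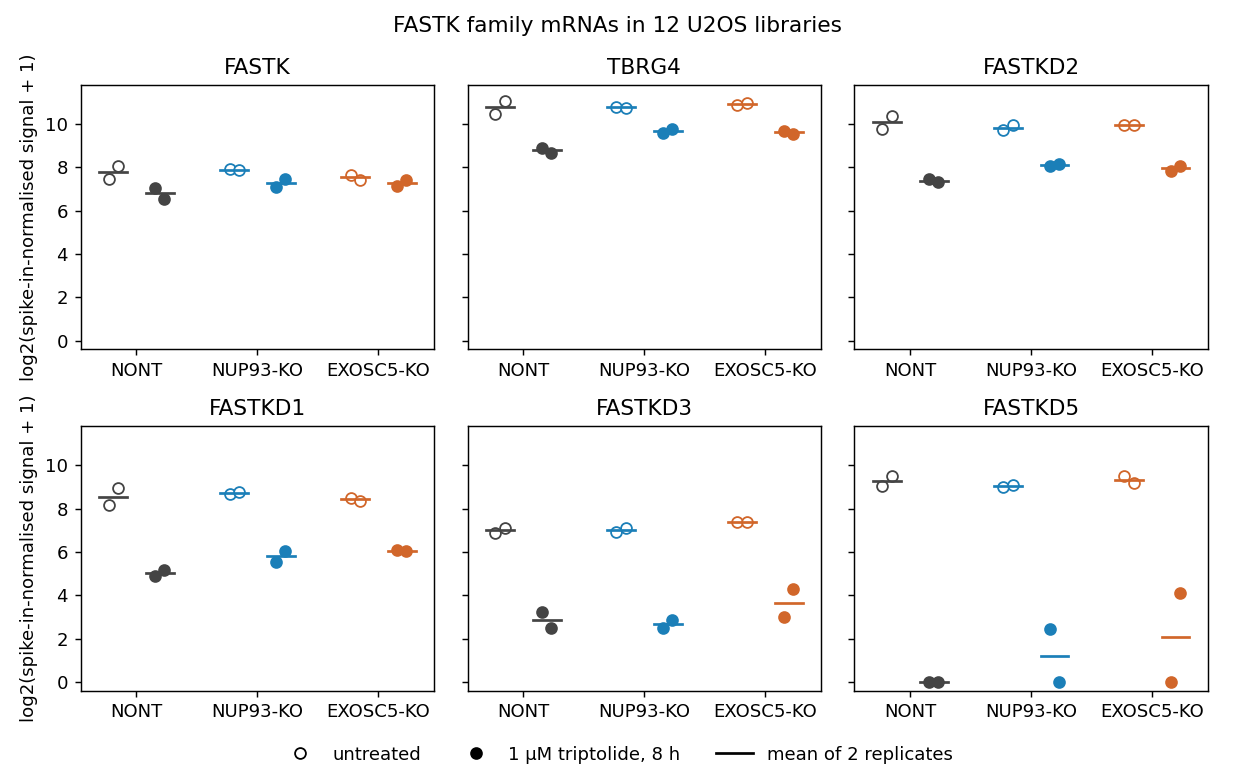
Each panel shows 1 member, with log2(normalised signal + 1) on the vertical axis, the 3 genotypes on the horizontal axis, open circles for untreated and filled circles for triptolide libraries, and a bar for the mean of 2 replicates. The gap between open and filled circles widens from FASTK to FASTKD5, whose treated NONT libraries are both listed at 0.

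FASTK, the founding member, lost the least. Its normalised signal was 173.2 and 270.2 in untreated NONT and 133.2 and 92.8 after triptolide. The NUP93-KO libraries gave 238.6 and 231.7 before drug and 133.9 and 176.1 after it. The EXOSC5-KO libraries gave 197.5 and 172.1 before and 141.4 and 169.6 after. Within a genotype, the nearest treated and untreated values were 169.6 and 172.1, in EXOSC5-KO. The log2 fold change was −0.95 ± 0.29 (SE) in NONT (limma adjusted p = 0.00608), −0.61 ± 0.29 in NUP93-KO (adjusted p = 0.0882) and −0.25 ± 0.29 in EXOSC5-KO (adjusted p = 0.448).

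The call for FASTK depended on single libraries and on the scaling. Without untreated NONT replicate 2 it was −0.63 (limma adjusted p = 0.0665) and without treated NONT replicate 2 it was −0.70 (adjusted p = 0.0746). In NUP93-KO, where both untreated NONT libraries enter the estimate of the spread, leaving out either of them brought the adjusted p to 0.0456 or 0.046 at an unchanged fold change, and a fit of the knockout libraries alone gave 0.0274. Relative to the median gene, FASTK was higher by 0.67, 0.31 and 0.82 in the 3 genotypes, in the order NONT, NUP93-KO and EXOSC5-KO. With median-of-ratios scaling, which sets the median gene close to 0, FASTK was therefore 0.68 higher after triptolide in NONT and 0.81 higher in EXOSC5-KO, both past the threshold (adjusted p = 0.00732 and 0.0027). With libraries set to the same mitochondrial mRNA sum, FASTK instead passed as lower in NONT (−0.60, limma adjusted p = 0.0329) and in NUP93-KO (−0.91, adjusted p = 0.00344).

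TBRG4 followed the median gene most closely. The NONT libraries gave 1428 and 2110 before drug and 474.8 and 406.8 after it. NUP93-KO gave 1763 and 1723 before and 767.6 and 858.4 after. EXOSC5-KO gave 1890 and 1994 before and 811.9 and 752.6 after. Of the untreated mean, 24.9%, 46.6% and 40.3% remained in NONT, NUP93-KO and EXOSC5-KO. The log2 fold changes were −1.98 ± 0.20, −1.10 ± 0.20 and −1.31 ± 0.20, which differed from the median gene by −0.36, −0.18 and −0.24. With median-of-ratios scaling TBRG4 was at −0.21 in NUP93-KO and no longer passed there (limma adjusted p = 0.0715), while it passed in the other genotypes.

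FASTKD2 fell further. Before drug the NONT values were 878.9 and 1319, and after drug 174.4 and 158.3. NUP93-KO values were 838.8 and 984.0 before and 265.8 and 283.1 after. EXOSC5-KO values were 979.2 and 988.2 before and 228.7 and 266.7 after. In the same order of genotypes, 15.1%, 30.1% and 25.2% of the untreated mean remained. The log2 fold changes were −2.69 ± 0.22, −1.72 ± 0.22 and −1.99 ± 0.22, with the highest limma adjusted p of the 3 at 5.28e-06.

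FASTKD1, whose loss is known to raise ND3 mRNA, was lower still after triptolide. In NONT it measured 281.8 and 488.5 before drug and 28.9 and 35.1 after. Values for NUP93-KO were 411.6 and 427.0 before and 45.9 and 64.3 after. Values for EXOSC5-KO were 355.4 and 329.3 before and 67.2 and 64.0 after. Thus 8.3%, 13.1% and 19.2% of the untreated mean remained, with log2 fold changes of −3.50 ± 0.31, −2.92 ± 0.31 and −2.36 ± 0.31.

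FASTKD3 lost the most of the 5 members measured in every library. From the untreated values given above it fell to 8.29 and 4.59 in the NONT libraries. The treated NUP93-KO libraries gave 4.60 and 6.29, and those of EXOSC5-KO 7.03 and 18.6. These treated values correspond to about 5.27 to 22.6 reads per library, against 76.8 to 123.7 reads without drug. The log2 fold changes were −4.14 ± 0.48, −4.33 ± 0.48 and −3.73 ± 0.48. Adding 1 to such low values understates the loss, and 5.1%, 4.25% and 7.77% of the mean remained.

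FASTKD5, whose treated NONT values led to the choice of the family, was at 526.2 and 729.1 in untreated NONT and listed at 0 in each of the treated NONT replicates. The untreated values correspond to about 553.5 and 415.0 reads. In both treated NONT libraries 125 of the 13811 tested genes were listed at 0. Among 10381 genes with an untreated mean of at least 100 there were 15. Among 5562 with a mean of at least 500 there were 2, FASTKD5 and DDIT4. FASTKD5 is in these counts by its choice, so they are a description. The knockout libraries were not used in the choice. In NUP93-KO, FASTKD5 was at 505.2 and 551.1 before drug and at 4.37 and 0 after it. For EXOSC5-KO it was at 717.0 and 582.3 before and at 0 and 16.5 after.

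FASTKD5 thus fell in both knockouts as well, with 0.414% and 1.27% of the mean remaining, and each knockout had 1 treated library at 0. The log2 fold changes were −7.83 ± 0.93 (limma adjusted p = 2.06e-06) and −7.27 ± 0.93 (adjusted p = 4.09e-06), with a spread estimated over all libraries, the treated NONT zeros that chose the family included. In a fit of the 8 knockout libraries alone, which those zeros do not enter, the SE was 1.17 and both falls still passed (limma adjusted p = 0.000304 and 0.000411). Their size depends on the pseudocount and on which treated library is used, and ranged from −9.05 to −6.28 in NUP93-KO and from −9.34 to −5.21 in EXOSC5-KO over the alternatives. All of these alternatives passed the threshold.

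**Figure D2:**
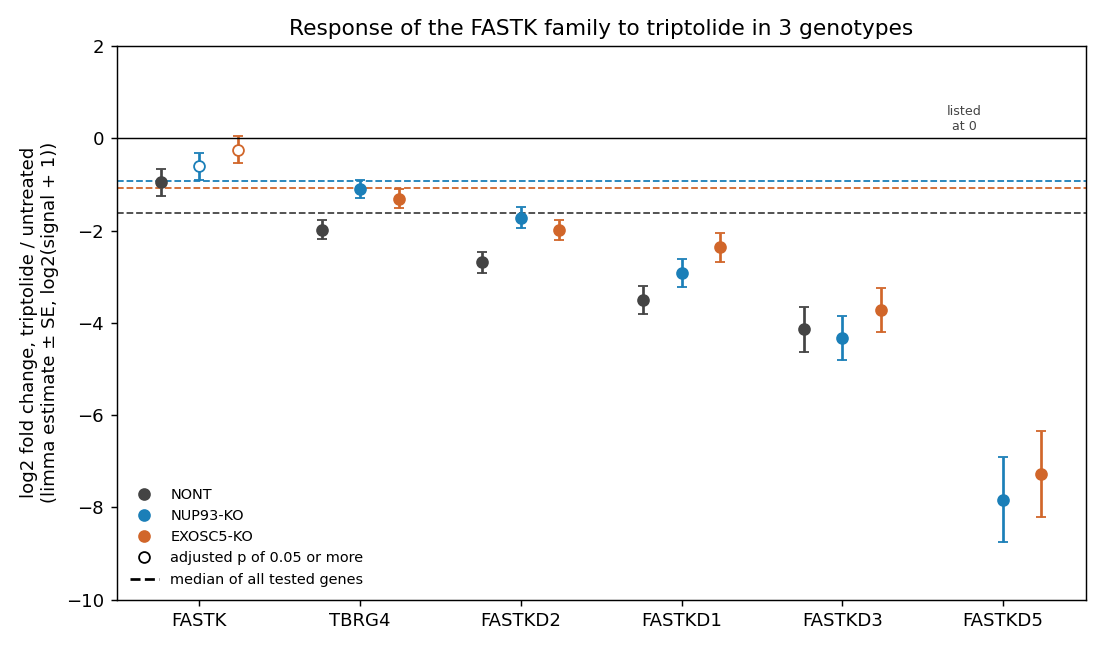
The log2 fold change after triptolide is plotted for each member and genotype as the limma estimate with its SE, filled where the adjusted p was under 0.05, with dashed lines at the median of all tested genes in each genotype. FASTK lies above the dashed line of its genotype in each case, TBRG4 close to them, and the estimates descend to −7.83 for FASTKD5 in NUP93-KO, while FASTKD5 in NONT is listed at 0 and has no estimate.

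The order of loss among members was the same in the 3 genotypes, from FASTK through TBRG4, FASTKD2 and FASTKD1 to FASTKD3, with FASTKD5 last in both knockouts. FASTKD1, FASTKD2 and FASTKD3 were lower in every genotype, and FASTKD5 in both knockouts, also under the 3 other scalings, all past the threshold. To test the members against each other within libraries, the log2 ratio of each pair, with 1 added to each value, was compared between treated and untreated libraries, with treatment labels permuted within genotype. For the 5 members other than FASTKD5, 10 of 10 pairs changed. Of these, 9 had an exact two-sided permutation p of 0.00926, the smallest that 216 arrangements can give (adjusted p = 0.0103). The remaining pair, FASTKD1 against FASTKD3, had an exact permutation p of 0.0185. Pairs of other genes were not tested, so whether this count is particular to the family cannot be told. With nothing added, so that the scaling between libraries cancels, the 10 pairs gave the same p-values and FASTK against FASTKD3 changed by 3.65 in place of 3.46.

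Neighbours in the order differed by less than its ends but still changed. FASTK rose against TBRG4 by 0.86 on the log2 scale as the mean of the 3 genotypes, and the ratio was −3.53 to −2.88 in the 6 untreated and −2.51 to −1.83 in the 6 treated libraries. TBRG4 against FASTKD2 lay between 0.68 and 1.07 without drug and between 1.36 and 1.82 with it. FASTKD2 against FASTKD1 lay between 1.03 and 1.64 without drug and between 1.75 and 2.55 with it. These 3 ratios did not overlap between treated and untreated libraries. FASTKD1 against FASTKD3 changed by 1.14 on average, with ranges of 1.00 to 1.85 and 1.68 to 3.16 that overlapped. Among these 5 members the widest change was FASTK against FASTKD3, at 3.46.

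FASTKD5 could be paired with the others only in the 8 knockout libraries, where 36 arrangements allow no exact permutation p under 0.0556. All 5 of its pairs reached that value. FASTKD5 fell against FASTKD3 by 3.52 on the log2 scale and against FASTK by 7.12, both with 1 added to each value.

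The make-up of the family shifted accordingly. TBRG4 took 54.8% to 60.1% of the summed signal per kb in untreated libraries and 65.9% to 73.5% in treated ones. FASTK took 6.44% to 9.67% and 15.8% to 22.9%. FASTKD5 took 12.9% to 16.7% and 0% to 1.16%, which includes the values that chose the family. No range of a treated share overlapped the untreated range for these 3 members. The sum includes FASTKD5, so the loss of FASTKD5 by itself raises the other shares. The summed signal per kb itself was 1169 to 1723 in the untreated and 268.3 to 543.9 in the treated libraries. After triptolide FASTK ranked second per kb in 6 of 6 libraries, at 51.8 to 98.2 against 23.6 to 42.2 for FASTKD2.

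**Figure D3:**
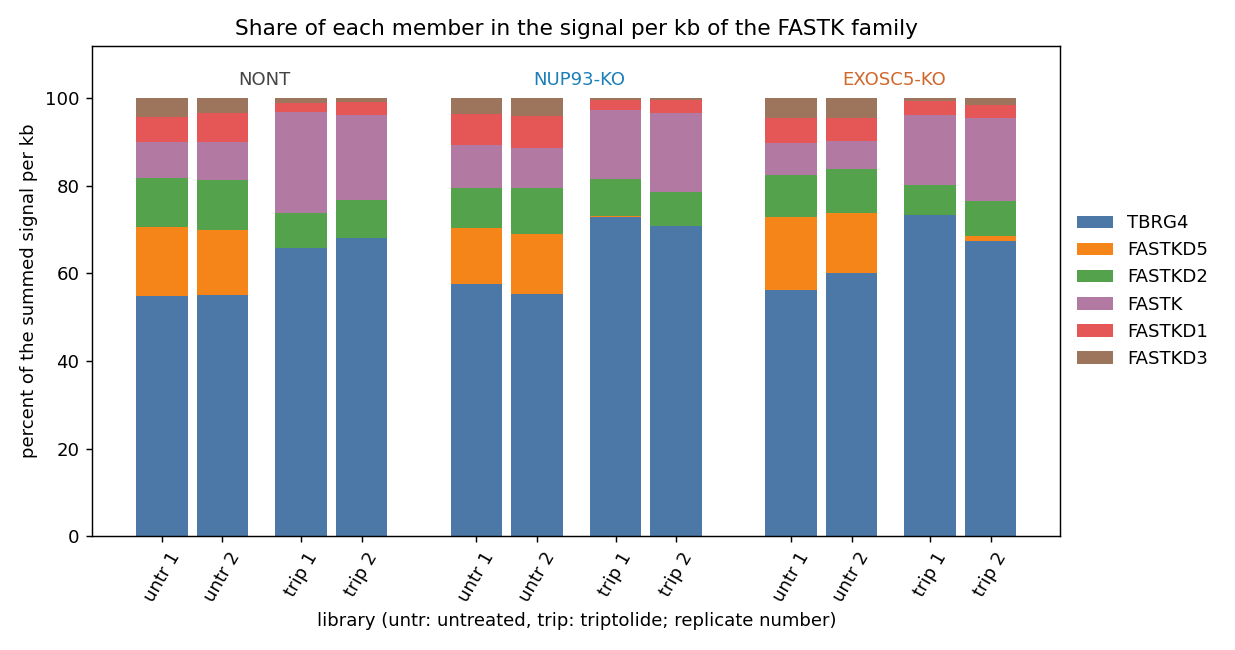
Stacked bars show the percent of the family's summed normalised signal per kb that each member took in each of the 12 libraries, grouped by genotype and treatment. TBRG4 and FASTK occupy more of each treated bar than of the untreated bars of the same genotype, and FASTKD5 is at most 1.16% of a treated bar. The loss of FASTKD5 by itself raises the other shares.

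The knockouts were chosen in the study to slow mRNA loss, so the response of each member was compared between genotypes. FASTK, FASTKD1, FASTKD2 and TBRG4 had smaller log2 falls in both knockouts than in NONT, by 0.34 to 0.96 in NUP93-KO and by 0.67 to 1.14 in EXOSC5-KO, and FASTKD3 differed by −0.19 and 0.41. None of the 5 members passed the test in NUP93-KO (0.775% of all genes did), where FASTKD2 (0.96 ± 0.31) and TBRG4 (0.88 ± 0.28) came closest at a limma adjusted p of 0.0695 each. None of the 5 passed in EXOSC5-KO (0.333% of all genes), where FASTKD1 came closest (1.14 ± 0.44, adjusted p = 0.183). The 2 comparisons share the NONT libraries. At an unadjusted p under 0.05 (limma) there were 2 and 3 of the 5 members. Such p-values were common among all 13811 tested genes. With the NUP93 guide 5709 genes had a positive difference from NONT at that level, while 39 had a negative one. The EXOSC5 guide gave 3187 positive and 56 negative. The 2 counts of members therefore say little about the family.

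These differences rested on the NONT libraries. Without untreated NONT replicate 1, they were 1.26 for FASTKD2 and 1.16 for TBRG4 in NUP93-KO. In EXOSC5-KO they were 1.53, 0.99 and 0.95 for FASTKD1, FASTKD2 and TBRG4. The median gene moved with them, to 0.996 in NUP93-KO and 0.836 in EXOSC5-KO. Without treated NONT replicate 1, TBRG4 was at 0.99 in NUP93-KO and the median gene at 0.859. With all libraries the median gene differed by 0.74 (NUP93-KO) and 0.57 (EXOSC5-KO), and relative to it the 5 members differed by a median of −0.16 and 0.12. Between the 2 knockouts, 0 of 6 members differed (0.0217% of all genes), with differences of −0.27 to 0.61, 0 at an unadjusted p under 0.05 and a lowest limma adjusted p of 0.984.

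Some members share their locus with another gene. The reference transcripts of FASTKD5 and UBOX5, which encodes a U-box ubiquitin ligase, share a start base on the minus strand of chromosome 20 (3159865). FASTKD5 lies within the UBOX5 span over 13347 bases. Reads from sequence common to both are divided between them by estimation, so the split of their values is uncertain. UBOX5 was at 73.8 and 130.5 in untreated NONT and at 0 and 1.29 after triptolide. Its NUP93-KO values were 130.9 and 128.7 before drug and 17.2 and 6.98 after. Its EXOSC5-KO values were 130.7 and 115.0 before and 1.64 and 9.0 after. UBOX5 was thus also among the deep losses, with 0.629%, 9.3% and 4.33% of its mean remaining and log2 fold changes of −6.04 ± 0.65, −3.44 ± 0.65 and −4.59 ± 0.65 (limma adjusted p at most 0.000261).

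The reference transcripts of FASTKD3 and MTRR, which encodes methionine synthase reductase, start on opposite strands of chromosome 5, at 7869031 and 7869148. With 116 bases between them, these starts flank the stretch printed above. The annotated MTRR gene is longer, at 7851186 to 7906025, so it spans that stretch and overlaps FASTKD3 over 9879 bases. The reads were counted by strand. MTRR values in NONT were 601.3 and 1141 before drug and 270.0 and 314.2 after. NUP93-KO had 766.6 and 776.0 before and 429.7 and 570.1 after. EXOSC5-KO had 834.6 and 901.8 before and 495.2 and 389.6 after. It kept 33.5%, 64.8% and 51.0% of its mean where FASTKD3 kept 5.1%, 4.25% and 7.77%. The MTRR log2 fold changes of −1.50 ± 0.26, −0.64 ± 0.26 and −0.98 ± 0.26 were close to the median gene. MDH1B, whose start lies near that of FASTKD2 on the other strand, was low, at 10.6 to 32.5 without drug and 5.54 to 11.7 with it.

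**Figure D4:**
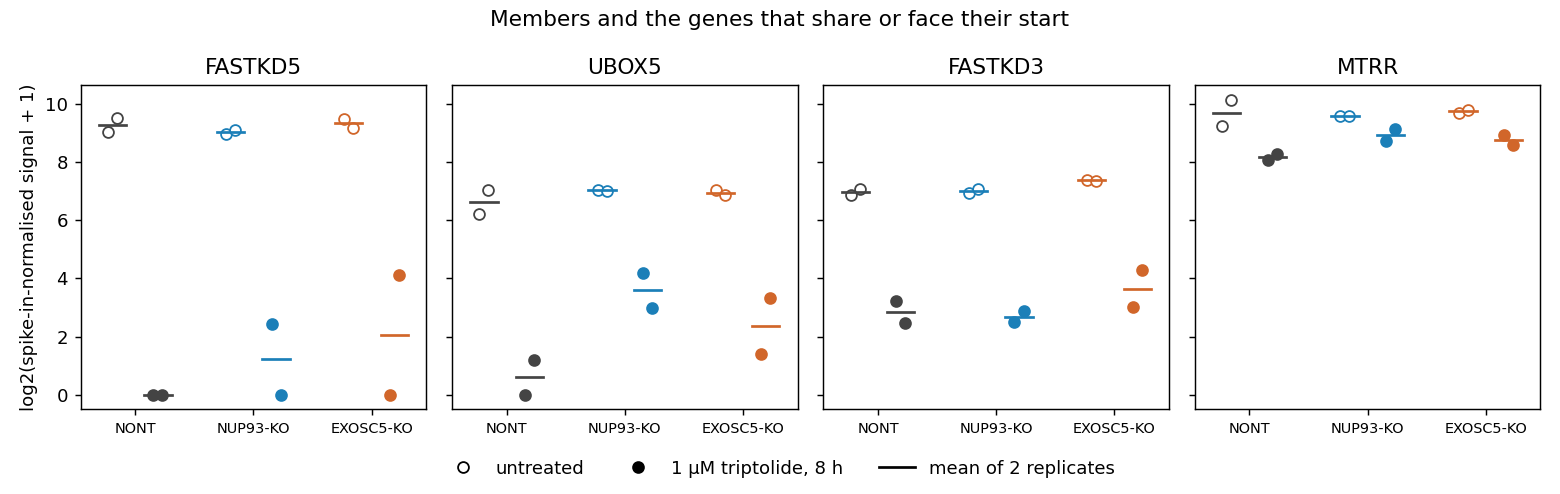
The panels show log2(normalised signal + 1) of FASTKD5, UBOX5, FASTKD3 and MTRR by genotype. The reference transcripts of FASTKD5 and UBOX5 share a start, and those of FASTKD3 and MTRR face each other. Open circles are untreated and filled circles triptolide libraries, with bars for the mean of 2 replicates. FASTKD5 and UBOX5 both end near the bottom of the axis, whereas MTRR stays far above FASTKD3 after triptolide.

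The genes whose log2 signal followed each member most closely over the 12 libraries were sought among those with an untreated mean of at least 100. They were LMF2, APEH and C4orf48 for FASTK (Pearson's r = 0.966 to 0.978), TXNDC9, IGBP1 and MARCHF4 for TBRG4 (0.997), and ARFGAP1, DCUN1D5 and TIMM21 for FASTKD2 (0.998). For FASTKD1 they were CDR2, ELOF1 and SLC35E4 (0.995 to 0.996), for FASTKD3 TBCC, JUN and ZNF394 (0.994 to 0.995), and for FASTKD5 RBM5, DDIT4 and ING1 (0.991 to 0.994). The points of each correlation share the treatment contrast and the library scale, so high values are common and describe a like depth of loss. Those of FASTKD5 include the treated NONT values that chose the family.

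Other nuclear genes for mitochondrial RNA metabolism were set beside the family, 42 genes for transcription, processing, polyadenylation and stability, RNA granules and pentatricopeptide proteins, RNA modification and translation. After triptolide 41, 36 and 37 of the 42 fell in the 3 genotypes, in the order NONT, NUP93-KO and EXOSC5-KO, and 0 rose. Of all tested genes 90.0%, 55.1% and 64.3% fell, so that the NONT count is close to that of genes at large. Their median log2 fold changes of −2.35, −1.66 and −1.85 differed from the median gene by −0.73, −0.75 and −0.77. For the 5 members other than FASTKD5 the median, that of FASTKD2 in each genotype, differed from it by −1.07, −0.81 and −0.91. With FASTKD5, which led to the choice of the family, the knockout values were −1.41 and −1.10. In both sets most genes lost more than the median gene, 33 of 42 factors in each genotype and, of the 5 members other than FASTKD5, all but FASTK.

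DDX28, a helicase of mitochondrial RNA granules, and TRMT10C, a subunit of mitochondrial RNase P, fell the most of the factors, with a mean log2 fold change over the genotypes of −6.07 and −4.50. REXO2, an oligoribonuclease, and SLIRP, the partner of LRPPRC in mRNA stability, had the mean log2 fold changes nearest to 0. The log2 fold changes of REXO2 were −0.70, 0.00092 and −0.19 and those of SLIRP −0.77, −0.02 and −0.19, and both genes passed in NONT alone (limma adjusted p = 0.00377 and 0.00352). FASTK, at −0.95, −0.61 and −0.25, lay near this end of the range.

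The mRNAs made inside mitochondria, on which the family acts, had log2 fold changes nearer to 0. Of 13 mitochondrially encoded mRNAs, 5 fell in NONT (90.0% of all tested genes) and 0 in either knockout (55.1% of all genes for NUP93 and 64.3% for EXOSC5), and 1 rose, MT-ND4 in NUP93-KO by 0.56 (limma adjusted p = 0.0433). Their median log2 fold change was −0.41, 0.28 and 0.05. The count of 5 in NONT was 1 to 13 when single libraries were left out, with 13 without untreated NONT replicate 1 and 1 without replicate 2 of either NONT group. In both knockouts 0 were lower at an unadjusted p under 0.05 (limma).

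MT-ND6, the transcript that the mitochondrial form of FASTK supports and one that lacks a long poly(A) tail, fell by 1.65 in NONT (limma adjusted p = 0.00205) and was at −0.09 and −0.38 in the knockouts, which did not pass (adjusted p = 0.884 and 0.436). MT-ND2 followed at −0.52 in NONT (adjusted p = 0.0453). At the other end MT-ND4 and MT-ND4L had log2 fold changes of −0.14 and −0.18 in NONT, which did not pass (adjusted p = 0.54 and 0.465). The libraries were made from poly(A) RNA, so these values cover the polyadenylated part of each transcript. MT-ND6 had by far the lowest signal of these mRNAs. Its NONT means were 49.7 untreated and 15.7 after triptolide, against 902 or more for the others, so its fall rests on few reads.

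**Figure D5:**
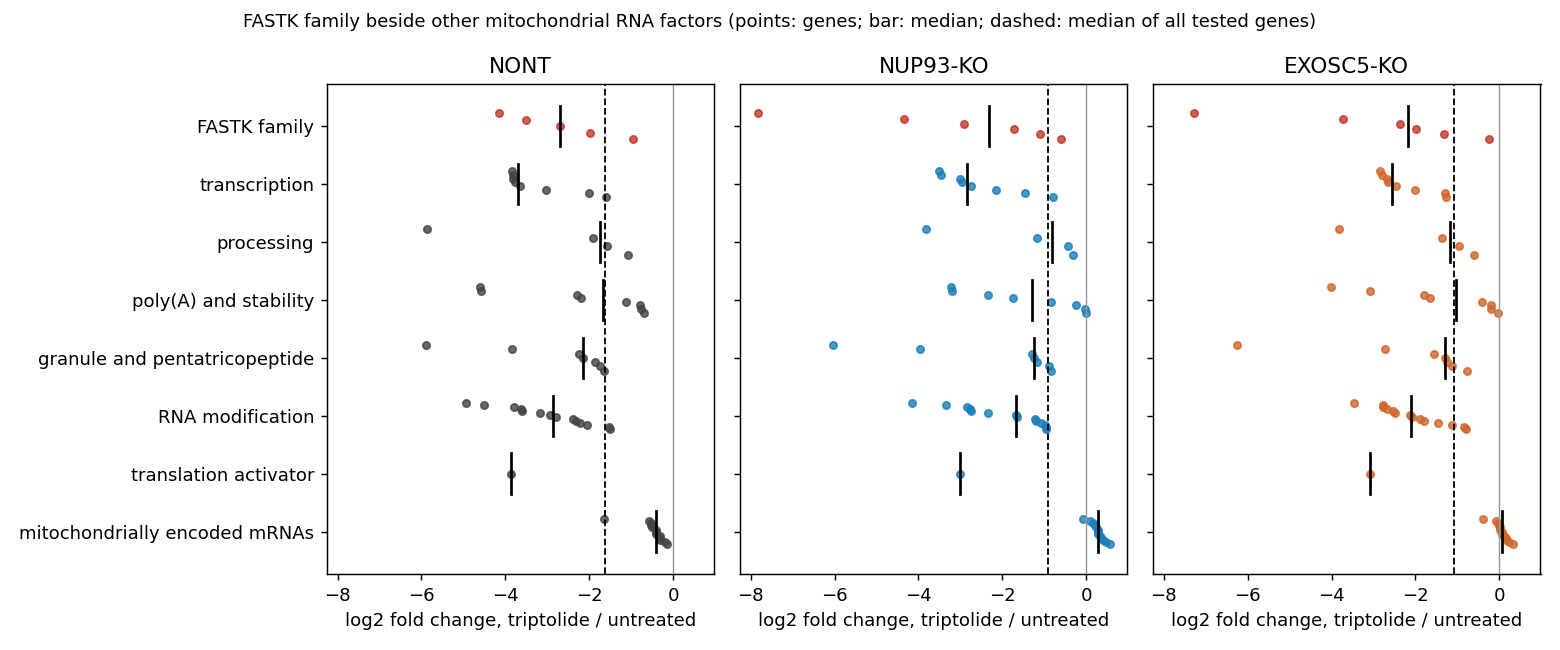
Each point is the log2 fold change of 1 gene after triptolide in NONT, NUP93-KO or EXOSC5-KO (1 panel each), for the FASTK family, the subgroups of 42 other mitochondrial RNA factors and the 13 mitochondrially encoded mRNAs, with a bar at the median of each set and a dashed line at the median of all tested genes. The family's bar includes FASTKD5 in the knockouts but not in NONT. The family spans from near the right edge of the factors to beyond their left edge in both knockouts, but in NONT, where FASTKD5 has no estimate, its lowest member is FASTKD3 at −4.14 and DDX28 lies at −5.90, and the mitochondrially encoded mRNAs cluster around 0, apart from MT-ND6 at −1.65 in NONT.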

How the data were processed

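Polyadenylated RNA from 12 libraries of U2OS cells was measured, with groups and replicate numbers as the sample labels give them. The deposited values are a spike-in-normalised signal per gene: per the labels and methods, the authors quantified stranded reads with kallisto 0.46.1 on GRCh38 transcripts, summed them to genes, restricted the table to protein-coding genes and normalised it with DESeq2 size factors from 92 ERCC transcripts added per counted cell. An error in a cell count or in pipetting moves all genes of a library together. Whole reads could not be recovered, so no count model was used. The worth of 1 read was read from the lowest ERCC values and gives approximate depth only.

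Genes with an untreated mean of at least 10 were tested as log2(signal + 1) with limma 3.58.1 (R 4.3.3): 6 group means over all libraries, eBayes with trend, 8 contrasts and Benjamini-Hochberg adjustment over 13811 genes with a threshold of 0.05, all two-sided. Adding 1 understates the change of low genes. Pairs of members were compared with exact permutation tests over libraries. In simulated data, 48.0% of genes with a log2 change of −1, 82.0% with −2 and 94.0% with −4 in NUP93-KO were recovered. Only 200 of 13811 genes were changed there, whereas 7603 were lower after triptolide in NUP93-KO. The adjustment depends on that number, so the rates do not give the power of the triptolide tests. No source says that replicates were separate cultures, so p-values measure only the spread between these libraries.

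Annotation came from GENCODE release 44 and promoters from RefSeq (GRCh38.p14), in which 5 of 6 members matched. Named genes were the members, targeted genes, genes overlapping a member or starting within 1000 bases, the 3 genes most like each member, and the 2 largest and 2 smallest falls of each list. DDIT4 and the markers were named besides, and FASTKD5 was not tested in contrasts that contain treated NONT libraries, although these enter the spread of its other contrasts. The members and lists were chosen with earlier results of these data known. Alternatives were the pseudocount (0.5 or 5), the filter (none or 50), no trend, 3 other scalings, a replicate block and leaving out each library. A fit of the 8 knockout libraries alone and pair ratios with no pseudocount were added after seeing the data. Summaries were made with pandas 2.3.3 and NumPy 2.4.6 in Python 3.11.15, and figures with matplotlib 3.10.9.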

Additional observations from a re-analysis of the deposited data

How the results depend on the processing

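The counts of members past the threshold for each triptolide response (5, 5 and 5), for each knockout without drug (0 and 0) and between the knockouts (0), and the 10 of 10 pairs, stayed within 1.5 times of their values under every alternative that was run, including a fit of the knockout libraries alone (6 and 5 members lower in NUP93-KO and EXOSC5-KO) and ratios with no pseudocount (10 of 10), both chosen after seeing the data. For the difference in response against NONT, the number of members past the threshold depended on which NONT library was left out. Without untreated NONT replicate 1, the median gene itself moved from 0.74 to 0.996 in NUP93-KO and from 0.57 to 0.836 in EXOSC5-KO. Median-of-ratios scaling reduced the 41, 36 and 37 mitochondrial RNA factors called lower to 26, 23 and 24 (NONT, NUP93-KO, EXOSC5-KO). Over all 13811 tested genes the same scaling took those called lower from 12427, 7603 and 8884 to 4213, 4150 and 3994. The 5 mitochondrially encoded mRNAs called lower in NONT became 3 with no filter, 1 without trend, 0 with the same total or median of ratios, 1 with the same mitochondrial mRNA sum, and 1 to 13 without single libraries. FASTK turned to higher after triptolide with the same total per library (0.38 in NONT, 0.54 in EXOSC5-KO) and with median of ratios (0.68, 0.28 and 0.81 for NONT, NUP93-KO, EXOSC5-KO), because these scalings move the median gene from −1.62 to −0.32 and −0.02 in NONT. Replicate numbers did not pair the libraries (correlation of deviations −0.05 to 0.04 over 15 pairs of groups), and with a replicate block 5, 5 and 5 members were lower after triptolide. With 2 replicates per group, small differences could not be called, and the treated values of FASTKD3 and FASTKD5 rest on few reads.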
